A study of Mus musculus with 51 samples.

Results

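The 41 cell division genes described here encode proteins that copy the DNA and divide the cell. They were taken as a list of symbols, of which all 41 were among the 22609 symbols of the count tables and had at least 10 counts in at least 3 of 51 libraries. By role, 11 act in DNA replication (Mcm2 to Mcm7, Pcna, Rrm1, Rrm2, Tyms and Ccne2), 9 are mitotic cyclins, kinases and their transcriptional activator (Ccna2, Ccnb1, Ccnb2, Foxm1, Aurka, Aurkb, Plk1, Ttk and Melk), and 9 build the kinetochore or its checkpoint (Bub1, Bub1b, Mad2l1, Cenpa, Cenpe, Cenpf, Ndc80, Nuf2 and Spc25). A further 8 organise the spindle, its midzone and cytokinesis (Tpx2, Prc1, Nusap1, Hmmr, Anln, Racgap1, Ect2 and Birc5), and 4 drive anaphase ubiquitination or shape mitotic chromosomes (Cdc20, Ube2c, Mki67 and Top2a). The libraries came from male C57 mice of 8 to 12 weeks, which carried no labelled genetic change and received paclitaxel (PTX) or vehicle. PTX was given by 2 intraperitoneal injections of 2 mg/kg, with a day between them.

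The 17 groups held 3 libraries each. Lumbar dorsal root ganglia (DRG, the clusters of sensory neuron bodies beside the spinal cord) and hind paw biopsies each had a vehicle group at day 2 and PTX groups at days 2, 7, 22 and 35. Because vehicle was collected at day 2 only in these tissues, drug and day cannot be told apart at days 7, 22 and 35. Lumbar spinal cord came under a pair of source names. Set A held vehicle and PTX libraries of days 1 and 7, and set B held PTX libraries of days 1, 22 and 35 without vehicle. The library titles and the series' design text did not give the same first day, and the titles were used. No label says that replicate libraries came from separate animals, so the p-values measure the spread between these libraries, which may be technical.

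A dividing cell first loads the MCM helicase on DNA, makes nucleotides and copies its chromosomes, and then builds a spindle of microtubules that pulls the copies apart. Many of these genes are switched on only in cycling cells, the replication genes earlier through E2F factors and the mitotic genes later through the MuvB complex with B-MYB and FOXM1, which binds a promoter element called CHR. PTX stabilises microtubules and arrests dividing cells in mitosis. Adult sensory neurons do not divide, whereas the basal layer of the epidermis and the hair follicle renew throughout life.

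Between 18645710 and 27257659 reads were counted in genes per DRG library, between 13346971 and 21697763 per paw library and between 17661067 and 30247230 per cord library. Vehicle paw replicate 2 stood apart in having 44.1 reads outside genes for each 100 reads in genes, against 23.7 and 21.1 in the other vehicle paw libraries. The summed level of 5 sensory neuron markers (Scn10a, Scn9a, Calca, Prph and Isl1), in CPM (counts scaled to library size), was 2515, 851.5 and 1459 in the PTX day 1 cord libraries of set A and 75.2, 1449 and 1324 in its day 1 vehicle libraries. It was between 70.1 and 180.1 in the other cord libraries, so that 5 of the 6 day 1 libraries of set A carried sensory neuron transcripts at levels that go against their label. The summed level of 7 markers of granulocyte precursors, which are dividing cells of the bone marrow (Elane, Mpo, Prtn3, Ctsg, Camp, Ngp and Ltf), also differed between libraries of 1 group. The 9 tables of set B and the 6 of day 35 in DRG and paw named their summary lines in another way than the other 36, so a difference in how these groups were counted cannot be told apart from set or day. In 7 of the 41 genes the annotated exons overlap a coding gene on the other strand (Ccna2, Ccne2, Cdc20, Mcm7, Nusap1, Prc1 and Ube2c), and Foxm1 overlaps a gene on its own strand. The strand setting of the counting is not given in the sources used here, so these genes, and Pcna, Tyms, Ccnb1 and Ccnb2, which have annotated pseudogene copies, carry some uncertainty.

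The promoter elements named above were counted in these genes and in all promoters, by the same roles by which the results are ordered. RefSeq windows (GRCm38.p6, 250 bases before to 50 after each annotated start) were matched for 35 of the 41 genes and were searched on both strands. The counts were made on mm9, so the coordinates below belong to the sequences and not to the counts. The CHR (TTTGAA or TTCGAA) was found in 21 of the 35 genes (60%) and in 19.2% of all 32851 windows. The CCAAT box (CCAAT) was found in 27 genes (77.1%) and in 37.4% of all windows, and both elements in 19 genes (54.3%) and 7.52% of windows. An E2F element (TTTGGCGC, TTTCCCGC, TTTGCCGC or TTTCGCGC) was found in 4 genes (11.4%) and in 2.26% of windows. By role, a CHR was found in 4 of 4 matched anaphase and chromosome genes, 6 of 9 kinetochore genes, 4 of 6 mitotic cyclin and kinase genes, 5 of 7 spindle genes and 2 of 9 replication genes. The 4 genes with an E2F element were all replication genes (Mcm3, Mcm5, Mcm6 and Mcm7). Matches of an element on the 2 strands can overlap, as the paired E2F matches of Mcm6 do, and a match describes these letters and is not a measured binding site.

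The 180 bases before the start are printed for 5 genes, 5′ to 3′ on the gene's strand, with matches on either strand in capitals. Mki67 (chr7:135716380-135716559, minus strand) and Top2a (chr11:99024190-99024369, minus strand) stand for the chromosome genes and have CHR and CCAAT matches. Ccnb2 (chr9:70421555-70421734, minus strand) stands for the mitotic cyclins. Its printed bases hold 1 CHR and 3 CCAAT boxes, and another CHR match lies after the start. Mcm6 (chr1:128359706-128359885, minus strand) stands for replication with E2F and CCAAT matches and no CHR. Anln (chr9:22389207-22389386, minus strand) is shown because its level was highest in cord. Its printed bases hold none of the elements, and its 2 CHR matches lie after the start.
Mki67: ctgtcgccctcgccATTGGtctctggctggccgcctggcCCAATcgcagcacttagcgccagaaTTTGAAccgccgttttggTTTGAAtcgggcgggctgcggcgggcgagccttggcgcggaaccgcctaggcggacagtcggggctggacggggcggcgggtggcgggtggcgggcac
Top2a: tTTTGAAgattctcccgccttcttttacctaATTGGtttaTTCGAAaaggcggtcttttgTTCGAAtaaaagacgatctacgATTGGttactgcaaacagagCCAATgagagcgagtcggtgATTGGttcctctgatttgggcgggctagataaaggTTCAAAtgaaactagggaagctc
Ccnb2: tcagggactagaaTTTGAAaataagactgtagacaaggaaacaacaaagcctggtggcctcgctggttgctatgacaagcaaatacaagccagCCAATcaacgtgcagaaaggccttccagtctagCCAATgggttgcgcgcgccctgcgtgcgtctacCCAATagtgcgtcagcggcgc
Mcm6: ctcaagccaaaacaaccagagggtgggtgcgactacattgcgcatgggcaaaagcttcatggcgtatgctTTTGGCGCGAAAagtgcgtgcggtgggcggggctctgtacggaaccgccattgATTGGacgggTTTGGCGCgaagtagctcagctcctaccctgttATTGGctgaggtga
Anln: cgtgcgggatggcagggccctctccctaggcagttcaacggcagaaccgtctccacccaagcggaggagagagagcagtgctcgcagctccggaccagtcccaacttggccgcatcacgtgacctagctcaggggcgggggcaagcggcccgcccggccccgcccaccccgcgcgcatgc

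In vehicle tissue 40 of the 41 genes had their highest mean level in the paw, and Anln had it in cord. The Mki67 transcript, which encodes the chromosome surface protein Ki-67 used as a marker of cycling cells, was at 178.9 ± 22.8 CPM in paw (SD, n = 3), 5.34 ± 0.852 CPM in DRG (SD, n = 3) and 9.30 ± 9.34 CPM in cord (SD, n = 6, days 1 and 7 of set A). Levels set across tissues were scaled over the 12 vehicle libraries together. Top2a, the topoisomerase that untangles chromosome copies, was at 75.3 ± 10.5 CPM in paw, 1.98 ± 0.228 CPM in DRG and 3.84 ± 3.29 CPM in cord. The lowest paw library, at 159.4 CPM of Mki67, lay above the highest DRG library at 6.06 and the highest cord library at 25.6. In cord the SD of Mki67 was as large as its mean, with libraries from 2.64 to 25.6 CPM. The cord vehicle libraries held 260.1, 380.5 and 46.8 CPM of the granulocyte precursor markers at day 1 and 46.5, 47.4 and 116.5 CPM at day 7, and the 2 libraries highest in these markers were also highest in Mki67. The part of these markers was not tested. In bulk RNA, fewer cycling cells and less RNA per cycling cell cannot be told apart.

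Per kilobase of exon, which allows genes to be compared with each other, the order of the genes differed between tissues. In paw Mki67 led with a level of 17.8 CPM per kb, ahead of Pcna (13.7), the sliding clamp of the replication fork, and Mcm6 (10.2), a helicase subunit, while Ndc80, a microtubule-binding kinetochore subunit, was lowest at 1.02. In DRG the highest levels were those of Pcna (6.18), Mcm4 (5.59) and Bub1b (2.31), and the lowest was that of the kinetochore protein Cenpf (0.0548). In cord Anln led at 11.1 CPM per kb, ahead of Pcna (8.20) and Mcm4 (6.16), with Ndc80 lowest at 0.0864. Replication genes were the role group with the highest median level per kb in DRG (1.35) and in cord (1.80), while in paw the 4 anaphase and chromosome genes were (8.03). The kinetochore genes had the lowest median in all 3 tissues, at 1.92 in paw, 0.190 in DRG and 0.289 in cord.

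**Figure D1:**
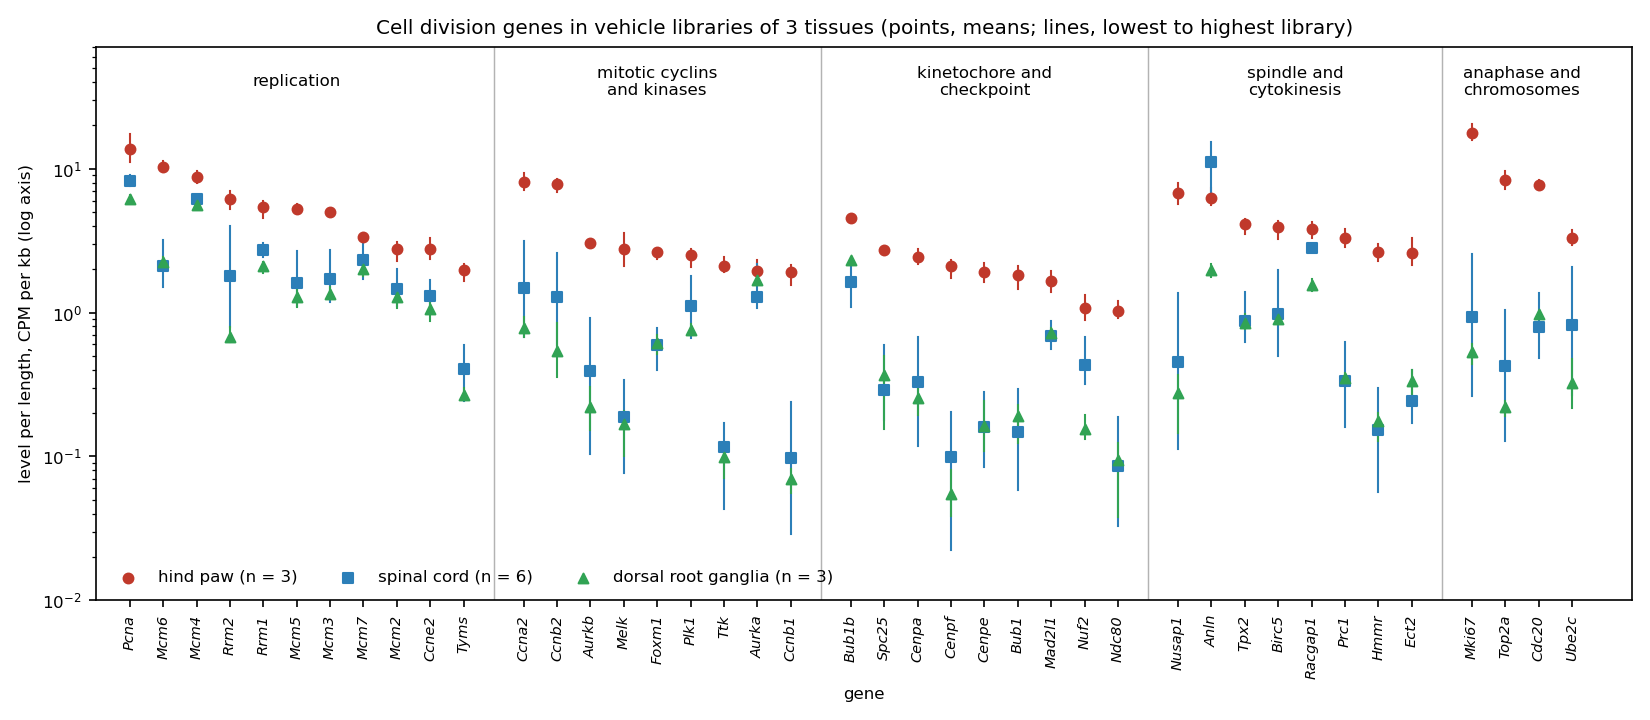
Level per exon length (CPM per kb, log axis) of each of the 41 genes in vehicle libraries of hind paw (n = 3), spinal cord (n = 6) and DRG (n = 3), with points for means and lines from the lowest to the highest library, ordered by role. The paw points lie above those of both other tissues except for Anln, whose cord level (11.1) is above its paw level (6.24), and the gap is narrow for Aurka and Mcm4.

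Tested over 16391 genes with edgeR's quasi-likelihood test, 40 of the 41 genes were higher in vehicle paw than in vehicle DRG, in a comparison in which 80.2% of all genes passed the adjusted threshold of 0.05 in either direction. Their median log2 difference was 2.88, beside -0.03 over all genes tested. The median difference was 1.37 in the replication genes, 2.62 in the spindle genes, 3.25 in the kinetochore genes, 3.78 in the mitotic cyclins and kinases and 4.196 in the anaphase and chromosome genes. Top2a differed by 5.25 ± 0.59 on the log2 scale (SE, adjusted p = 1.30e-05), and Ttk, the checkpoint kinase MPS1, by 4.41 ± 0.29 (SE, adjusted p = 1.96e-08). Ccnb1, the cyclin whose destruction ends mitosis, differed by 4.76 ± 0.51 (SE, adjusted p = 2.26e-06), but rested on 7, 5 and 6 reads in the 3 vehicle DRG libraries. At the other end, Mcm4 differed by 0.65 ± 0.10 (SE, adjusted p = 5.52e-05). Aurka, the spindle pole kinase, was the gene that missed the threshold, at 4.91 ± 0.852 CPM in paw and 4.23 ± 0.235 CPM in DRG (log2 difference 0.22 ± 0.25 SE, adjusted p = 0.426).

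Against cord, 40 of the 41 genes were higher in paw and 1 was lower, where 84.1% of all genes passed. The median log2 difference was 2.31, beside -0.06 over all genes. It was again smallest in the replication genes, at 1.08, and 2.71 in the mitotic cyclins and kinases, 2.82 in the spindle genes, 3.28 in the kinetochore genes and 3.91 in the anaphase and chromosome genes. The gene lower in paw was Anln, which encodes anillin, a scaffold of the contractile ring. Anln was at 100.7 ± 31.9 CPM in cord (SD, n = 6), 56.5 ± 8.76 CPM in paw (SD, n = 3) and 17.9 ± 1.95 CPM in DRG (SD, n = 3). Its paw level was lower than its cord level by 0.77 ± 0.12 on the log2 scale (SE, adjusted p = 5.51e-05), although the single libraries overlapped, with 50.7 to 66.6 CPM in paw and 62.4 to 139.6 in cord.

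DRG and cord lay closer together in most of these genes, with a median log2 difference of -0.19. Between them 1 of the 41 genes was higher and 8 were lower in DRG, where 62.1% of all genes passed. Anln was lower in DRG by 2.44 ± 0.13 on the log2 scale (SE, adjusted p = 2.51e-08), with no DRG library above 19.8 CPM and no cord library under 62.4. Racgap1, its partner at the midzone, was at 11.01 ± 1.04 CPM in DRG and 19.8 ± 0.961 CPM in cord, which is lower by 0.84 ± 0.10 (log2, SE, adjusted p = 1.91e-05). Nuf2, Rrm2, Rrm1, Pcna, Tyms and Ccnb2 were also lower in DRG, with log2 differences from -1.45 (Nuf2) to -0.37 (Rrm1). In the 2 cord libraries rich in granulocyte precursor markers Rrm2 was at 7.52 and 11.6 CPM, on the scale of the cord fit, and in the other 4 it was between 2.24 and 3.47. Vehicle day 1 replicates 2 and 3 of cord, with sensory neuron sums of 1449 and 1324 CPM, also entered this comparison and that of paw with cord, and the part of either set of markers in them was not tested. The gene higher in DRG was Bub1b, a checkpoint protein, at 9.87 ± 0.695 CPM against 6.91 ± 2.03 CPM in cord (log2 difference 0.52 ± 0.20 SE, adjusted p = 0.0409). The count of 9 was 18 without vehicle day 1 cord replicate 3 and 5 without vehicle DRG replicate 1.

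In DRG none of the 41 genes passed the test after PTX at any day. The background in that tissue was 0.0% of 15333 genes at day 2, 0.157% at day 7, 0.0% at day 22 and 0.209% at day 35. At an unadjusted p under 0.05 the test gave 0, 13, 0 and 2 of the 41 genes at the 4 days, beside 7.62%, 22.4%, 8.85% and 13.0% of all genes. DESeq2 called 1 of the 41 at day 7, 1 at day 35 and 0 at the others. The median log2 difference from vehicle was 0.17 at day 2, 0.61 at day 7, 0.18 at day 22 and 0.04 at day 35, while the median over all genes was within 0.003 of 0. At day 2 the smallest p belonged to Ttk (log2 difference 0.70 ± 0.47 SE, adjusted p = 0.717), and Top2a was at 1.72, 4.70 and 4.67 CPM, 1 within and 2 above the range of vehicle (0.93 ± 0.65 SE, adjusted p = 0.724). At day 7 the 3 genes with the smallest p were Top2a (2.12 ± 0.64 SE, adjusted p = 0.108), Cenpf (1.45 ± 0.51 SE, adjusted p = 0.130) and the B-type cyclin Ccnb2 (1.47 ± 0.54 SE, adjusted p = 0.140).

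The day 7 values turned on 1 library. Mki67 was at 6.44, 22.4 and 6.29 CPM in the 3 PTX day 7 libraries and at 4.27, 5.98 and 5.39 CPM in vehicle, on the scale of the DRG fit. Top2a was at 3.88, 18.3 and 3.02 CPM against 1.68, 1.99 and 2.12 CPM in vehicle. For Mki67 and Top2a each day 7 library lay above each vehicle library, which was so for 2 of the 41 genes and 11.4% of all genes. PTX day 7 replicate 2 was the highest of the 15 DRG libraries for 39 of the 41 genes, against 19.1% of all genes. Mcm6 was at 19.8 CPM in it and at 12.7 and 9.71 in the other day 7 libraries. Rrm2, the small subunit of ribonucleotide reductase, was at 8.57 CPM in it and at 1.89 and 2.04 in the others. Without this library the median difference of the 41 genes at day 7 was -0.02, and without replicate 3 it was 0.91 with 4 genes called.

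In the same library the summed level of the 7 granulocyte precursor markers was 930.6 CPM, against 155.8 and 109.5 in the other day 7 libraries and 57.2 to 83.4 in vehicle. Of these 7 markers 0 passed the test at day 7 and their median log2 difference was 2.02. None of them was at 0 in all libraries of either group. The summed level of 6 neutrophil markers was 1461 CPM there, against 296.2 and 194.0. That of 8 macrophage and microglia markers was 370.7 CPM, against 189.7 and 134.5, and that of 6 fibroblast markers 5032 CPM, against 3095 and 2735. The red cell precursor markers were at 32.2 CPM, within the 23.2 to 35.6 of vehicle. At day 2 the PTX libraries had 26.4, 281.5 and 291.6 CPM of the granulocyte precursor markers, and 3.25, 9.41 and 11.3 CPM of Mki67, so that the library lowest in one was lowest in the other. At day 35 it was otherwise, as replicate 1 had the highest marker sum (138.0 CPM, against 116.6 and 84.05) and the fewest Mki67 reads (120, against 174 and 160). The part of these markers in the levels of the 41 genes was not tested.

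**Figure D2:**
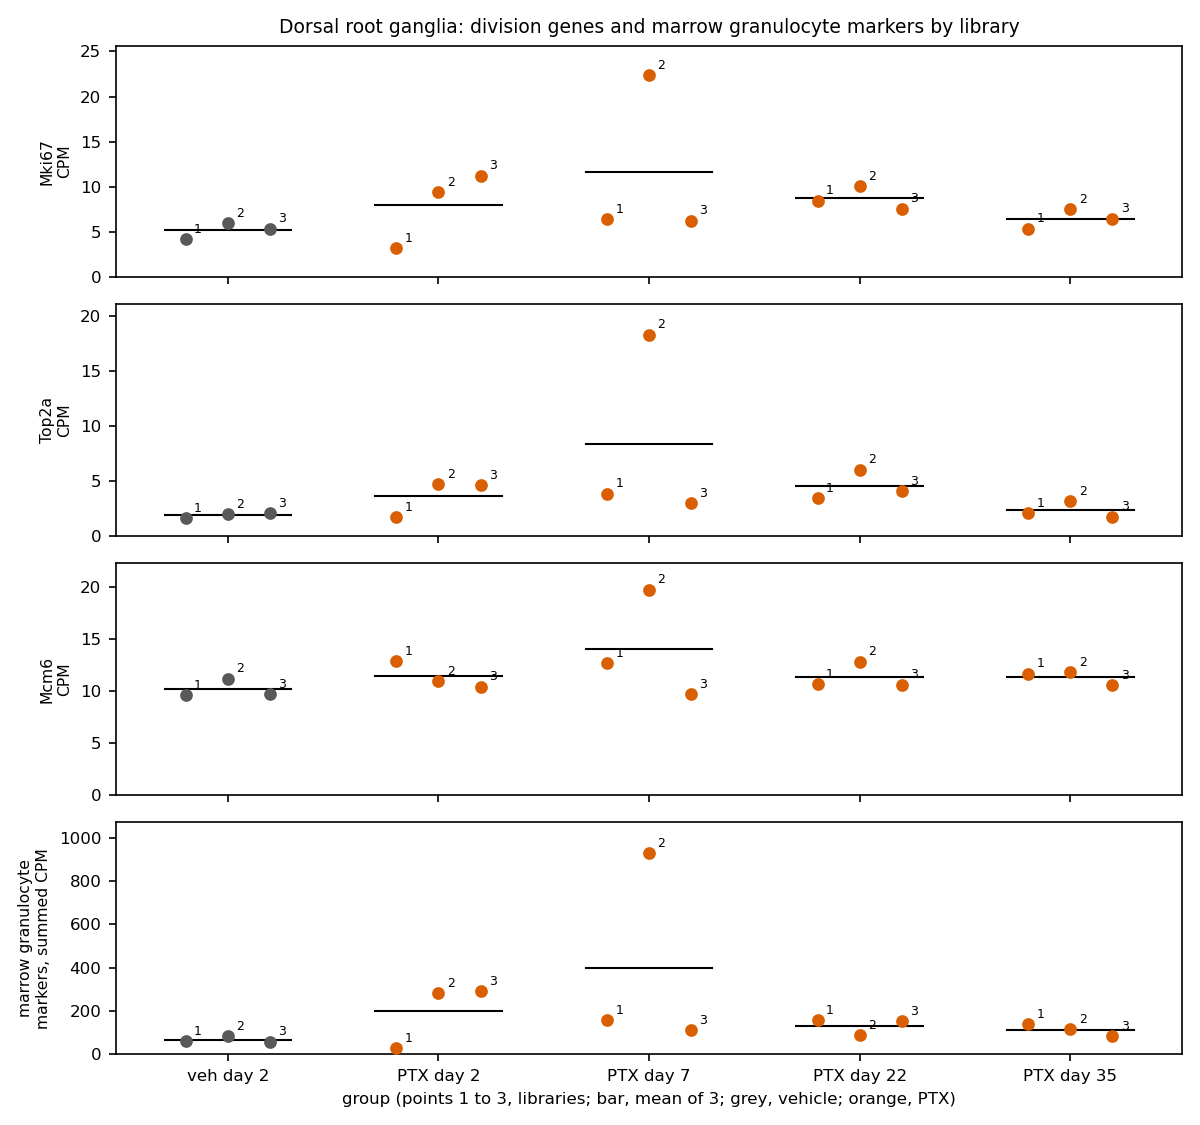
Levels in each DRG library (CPM, linear axes from 0) by group, with points for libraries 1 to 3 and bars for the mean of 3, grey for vehicle and orange for PTX. PTX day 7 replicate 2 stands above the others in the panels of dividing-cell genes (Mki67 22.4 CPM, Top2a 18.3 CPM) and of granulocyte precursor markers (930.6 CPM).

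At day 22, 6 of the 41 genes (Cenpa, Hmmr, Mki67, Prc1, Rrm2 and Top2a) had each PTX DRG library above each vehicle library, as had 7.62% of all genes. Bub1b had each below, as had 8.38% of all genes. Top2a was at 3.49, 6.04 and 4.09 CPM at day 22, each above vehicle (log2 difference 1.24 ± 0.64 SE, adjusted p = 0.600), and at 2.12, 3.22 and 1.79 CPM at day 35. Mki67 was at 8.48, 10.1 and 7.60 CPM at day 22, also each above vehicle (log2 difference 0.75 ± 0.51 SE, adjusted p = 0.679). The day 22 libraries had 155.7, 86.5 and 153.2 CPM of the granulocyte precursor markers, each above the 57.2 to 83.4 of vehicle, and 219.0, 120.3 and 227.1 CPM of the neutrophil markers, each above the 80.6 to 113.8 of vehicle. Replicate 2, the highest of the day 22 libraries in Mki67 and Top2a, was the lowest of them in both marker sums. Of these markers 0 passed the test at day 22, and their part was not tested. The gene with the smallest p at day 35 was Bub1b, at 6.13, 1.78 and 1.95 CPM against 9.94, 8.94 and 10.01 in vehicle (log2 difference -1.56 ± 0.41 SE, adjusted p = 0.200). For Bub1b the day 35 libraries were all below the vehicle libraries, as for 3 of the 41 genes and 9.5% of all genes. Without day 35 replicate 1 the count of genes called was 1. No gene passed a test for any difference among the 4 PTX days, for which the background was 0.0196%.

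In paw, where the levels are highest, none of the 41 passed the test at any day after PTX either. The background was 0.0% of 15199 genes at days 2, 7 and 35 and 1.12% at day 22. Unadjusted p-values under 0.05 numbered 0, 0, 2 and 6 at days 2, 7, 22 and 35, beside 7.36%, 13.8%, 18.7% and 5.31% of all genes. DESeq2 called 0 of the 41 at each. The median log2 difference was 0.03 at day 2, 0.16 at day 7, 0.02 at day 22 and 0.26 at day 35, beside medians over all genes within 0.015 of 0. A test for any difference among the 4 PTX days passed for 0 of the 41 genes and 0.0% of all genes.

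At day 2 Mki67 was at 213.4, 179.1 and 169.4 CPM in the PTX paw libraries and at 176.6, 162.0 and 200.3 CPM in vehicle, and the groups overlapped (log2 difference 0.06 ± 0.22 SE, adjusted p = 0.957). Ccnb1 was at 10.4, 7.10 and 4.96 CPM against 8.75, 6.63 and 8.84 CPM (log2 difference -0.11 ± 0.30 SE, adjusted p = 0.944). Cdc20, the activator of the anaphase-promoting complex, was at 18.5, 16.3 and 11.8 CPM against 15.8, 14.7 and 13.1 CPM (log2 difference 0.10 ± 0.34 SE, adjusted p = 0.954). The SE of 0.22 to 0.34 on the log2 scale limits which changes could have been detected in these 3 genes.

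At day 7 the paw values were above vehicle for 40 of the 41 genes, and for 50.5% of all genes, by little. Mki67 was at 170.1, 234.7 and 180.5 CPM (log2 difference 0.12 ± 0.22 SE, adjusted p = 0.875), which overlapped vehicle. The smallest p was that of the helicase subunit Mcm3, at 21.7, 30.4 and 23.1 CPM against 18.3, 18.4 and 19.4 CPM in vehicle (log2 difference 0.42 ± 0.21 SE, adjusted p = 0.401). Replicate 2 was above the median of the 15 paw libraries for 41 of the 41 genes, against 51.3% of all genes, and without it the median difference at day 7 was -0.005. Its neutrophil markers summed to 123.1 CPM, against 10.4 and 23.1 in the other day 7 libraries, and its red cell precursor markers to 12.9 CPM, the highest of the paw libraries. It had the lowest sum of hair follicle markers of the paw libraries, at 15.3 CPM. The part of these markers was not tested.

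At day 22 the role groups had different medians. The median log2 difference was 0.29 in the 11 replication genes, 10 of which were above 0. It was 0.02 in the 9 mitotic cyclins and kinases, -0.06 in the 8 spindle genes, -0.10 in the 9 kinetochore genes and -0.09 in the 4 anaphase and chromosome genes. The 3 smallest p-values belonged to Mcm3 (0.54 ± 0.21 SE, adjusted p = 0.185), and to its fellow helicase subunits Mcm5 (0.58 ± 0.26 SE, adjusted p = 0.254) and Mcm2 (0.44 ± 0.23 SE, adjusted p = 0.338). Mcm3 was at 26.8, 34.1 and 20.5 CPM, each above vehicle, which was so for 1 of the 41 genes and 14.8% of all genes. Mki67 was at 139.0, 169.5 and 97.4 CPM, with its lowest value of all paw libraries in replicate 3 (log2 difference -0.41 ± 0.22 SE, adjusted p = 0.348). PTX day 22 replicate 3 was above the median of the 15 paw libraries for 0 of the 41 genes, against 49.2% of all genes. It was the lowest of the 15 for 28 of the 41, and the share of all genes for which it was lowest is not given. The difference between the role groups was not tested.

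That library also had the highest summed level of 6 neutrophil markers, at 303.6 CPM against 9.93 and 120.6 in the other day 22 libraries and 10.4 to 45.3 in vehicle. Its granulocyte precursor markers summed to 36.4 CPM against 1.44 and 2.45, and its T and B cell markers to 68.4 CPM against 3.34 and 3.91. Without it the median difference at day 22 was 0.24. In all 3 day 22 libraries the fibroblast markers, at 12480 to 18500 CPM, and the macrophage markers, at 461.1, 642.8 and 1176 CPM, lay above vehicle, which had 6038 to 7796 and 235.0 to 392.5 CPM. Higher at day 22 by the test were 5 of 6 mast cell, 2 of 6 fibroblast, 2 of 6 fat cell and 1 of 8 macrophage markers. The part of these cells in the role medians and in the levels of the 41 genes was not tested.

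At day 35 the paw values were above vehicle for 40 of the 41 genes, and for 51.0% of all genes. In 7 genes (Anln, Aurkb, Ccne2, Rrm1, Rrm2, Top2a and Ube2c) each PTX library was above each vehicle library, which was so for 6.41% of all genes. Top2a was at 104.7, 159.6 and 92.5 CPM against 75.8, 66.3 and 84.7 CPM (log2 difference 0.65 ± 0.24 SE, adjusted p = 0.913). Ccne2, the cyclin E of the start of replication, was at 12.1, 15.01 and 11.8 CPM against 9.31, 8.37 and 11.2 CPM (log2 difference 0.43 ± 0.15 SE, adjusted p = 0.913). Anln was at 74.8, 95.2 and 66.1 CPM against 51.7, 53.1 and 65.4 CPM (log2 difference 0.47 ± 0.19 SE, adjusted p = 0.913). Replicate 2 was the highest paw library for 26 of the 41 genes, against 17.8% of all genes. It also had the highest sum of basal keratinocyte markers, at 7537 CPM against 4193 to 7039 in the other 14, and the lowest of skeletal muscle markers, at 876.9 CPM against 4328 to 19180. Without it the median difference was 0.11, and the part of the tissue's make-up in the result was not tested.

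The difference between the DRG and the paw effect of PTX, tested for each gene in 1 fit of both tissues with 16304 genes, passed for none of the 41 genes at day 2, 7, 22 or 35, where the background was 0.0%, 0.196%, 0.0245% and 0.0184%. Unadjusted p-values under 0.05 numbered 0, 5, 1 and 3, beside 6.06%, 13.7%, 13.3% and 7.43% of all genes. DESeq2 called 0 of the 41 at each day. At day 7 the median difference was 0.36 with Top2a at 1.90 ± 0.66 (log2, SE, adjusted p = 0.186), and it was -0.24 without PTX day 7 DRG replicate 2. At day 35 it was -0.35, with Bub1b at -1.76 ± 0.49 (log2, SE, adjusted p = 0.404), and it was -0.10 without PTX day 35 paw replicate 2. Without PTX day 35 DRG replicate 1 the count called at day 35 was 1.

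**Figure D3:**
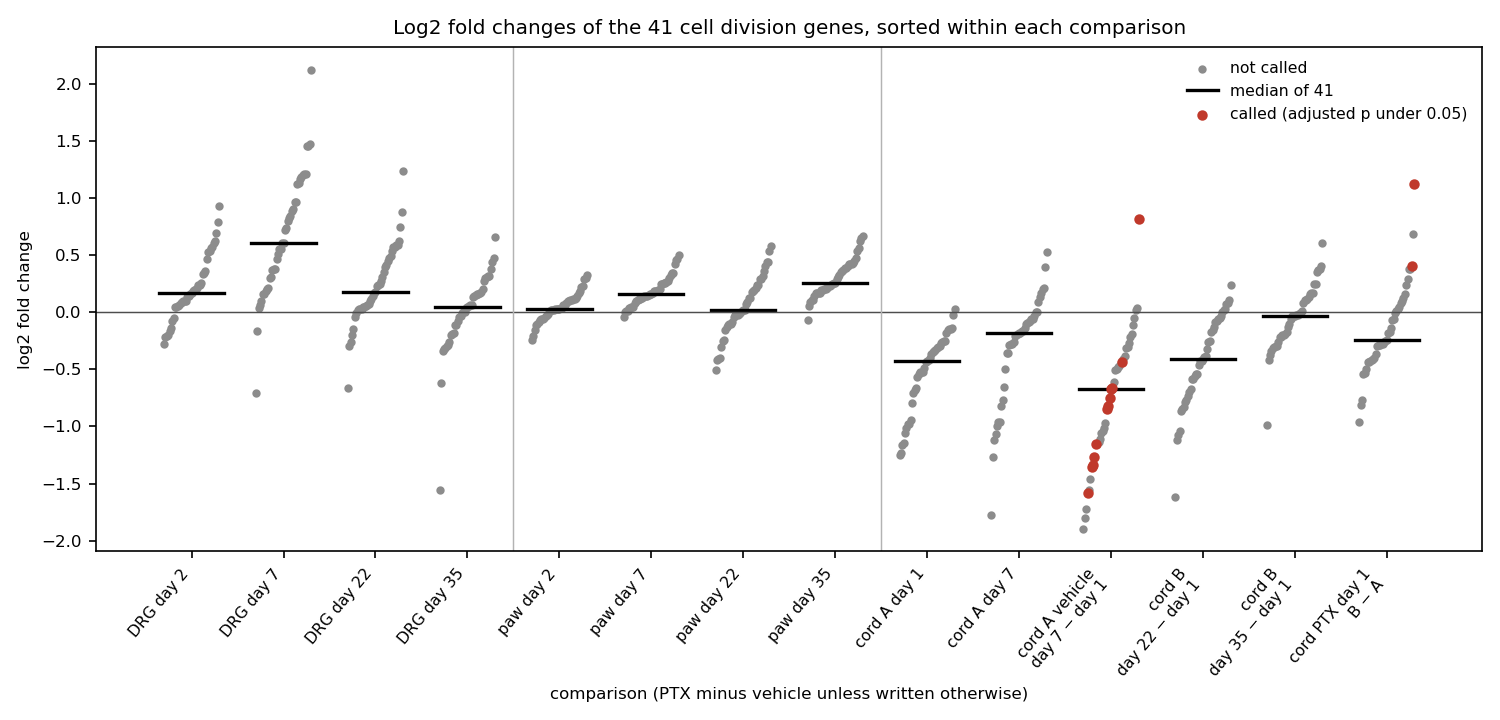
Log2 fold changes of the 41 genes, sorted within each comparison, with red points for genes that passed the adjusted threshold, grey points for the others and a black line at the median of the 41. The comparisons of PTX with vehicle hold no red point, while vehicle day 7 against vehicle day 1 in cord set A holds 12 and the PTX day 1 comparison of the cord sets holds 2.

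In cord set A the genes were compared with the vehicle libraries of the same day. None of the 41 passed the test at day 1 or at day 7, where the background was 0.0% of 15815 genes at both. At an unadjusted p under 0.05 there were 9 genes at day 1 and 1 at day 7, all lower with PTX, beside 21.5% and 15.9% of all genes in either direction. DESeq2 called 0 of the 41 at both. The median log2 difference was -0.42 at day 1 and -0.19 at day 7. At day 1, 1 of the 41 genes and 44.5% of all genes were above 0. At day 1 the 3 smallest p-values belonged to Racgap1 (-0.34 ± 0.09 SE, adjusted p = 0.165), Ccne2 (-0.57 ± 0.16 SE, adjusted p = 0.165) and Rrm2 (-1.15 ± 0.38 SE, adjusted p = 0.165). Racgap1 was at 13.2, 17.3 and 17.0 CPM with PTX and at 19.97, 20.98 and 19.14 CPM with vehicle, without overlap, as were 4 of the 41 genes and 10.4% of all genes. The day 1 libraries had 190.8, 111.1 and 30.7 CPM of the granulocyte precursor markers with PTX and 260.1, 380.5 and 46.8 CPM with vehicle. Their sensory neuron markers summed to 2515, 851.5 and 1459 CPM with PTX and 75.2, 1449 and 1324 CPM with vehicle. Racgap1, which was lower in vehicle DRG than in vehicle cord, was lowest in the library with 2515 CPM, but was highest, at 20.98 CPM, in that with 1449. Without vehicle day 1 replicates 1 and 2, a choice made after seeing these values, the median was 0.31 and Rrm2 differed by 0.14. Each of the 2 was above the cord median for 39 of the 41 genes, so leaving them out was bound to raise the difference. It therefore does not decide the part of either set of markers, which was not tested. At day 1, 3 genes were called without PTX day 1 replicate 2. At day 7, 2 were called when the 6 day 7 libraries were fitted alone. The share of all genes called in these fits is not given, so these counts are not set against a background.

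At day 7 Mki67 was at 2.35, 1.47 and 1.23 CPM with PTX and at 3.26, 4.34 and 4.61 CPM with vehicle, without overlap (log2 difference -1.27 ± 0.73 SE, adjusted p = 0.425). The same held for 7 of the 41 genes, against 16.3% of all genes. The smallest p was that of the kinase Melk, at 0.193, 0.0867 and 0.158 CPM against 0.669, 0.614 and 0.258 CPM (log2 difference -1.77 ± 0.65 SE, adjusted p = 0.193). These levels rest on 2 to 17 reads per library. The granulocyte precursor markers summed to between 7.91 and 54.4 CPM with PTX and between 46.5 and 116.5 CPM with vehicle.

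Between the 2 vehicle groups of set A, 11 of the 41 genes were lower and 1 was higher at day 7 than at day 1, in a comparison in which 19.7% of all genes passed. The median log2 difference of the 41 genes was -0.68, beside -0.04 over all genes. The genes lower at day 7 were 6 replication genes (Mcm3, Mcm5, Mcm6, Mcm7, Rrm2 and Tyms), the kinases and cyclins Ttk and Ccna2, the kinetochore genes Cenpa and Ndc80, and Ect2, the exchange factor that starts cytokinesis. Mcm6 was at 15.3, 13.2 and 9.83 CPM at day 1 and at 7.15, 7.99 and 7.53 CPM at day 7 (log2 difference -0.76 ± 0.16 SE, adjusted p = 0.00728). Rrm2 was at 7.52, 11.6 and 3.04 CPM at day 1 and at 3.47, 2.24 and 2.97 CPM at day 7 (log2 difference -1.35 ± 0.38 SE, adjusted p = 0.0229). Cenpa, the histone of the centromere, differed by -1.58 ± 0.44 (log2, SE, adjusted p = 0.0203), the furthest of the 11, and Mcm7 by -0.44 ± 0.15 (log2, SE, adjusted p = 0.0456), the nearest to 0. Anln was the gene higher at day 7, at 142.8, 125.7 and 126.2 CPM against 85.9, 74.9 and 63.6 CPM (log2 difference 0.82 ± 0.21 SE, adjusted p = 0.0163).

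The day 1 vehicle libraries were unlike each other. Mki67 was at 16.1, 26.6 and 2.69 CPM in them, and the granulocyte precursor markers summed to 260.1, 380.5 and 46.8 CPM. Markers of red cell precursors summed to 111.1, 168.5 and 14.7 CPM, with Hba-a1 and Hbb-b1 listed at 0 in all libraries. Replicate 2 was the highest of the 21 cord libraries for 31 of the 41 genes, against 7.56% of all genes. The PTX day 1 libraries had 9.97, 6.28 and 2.78 CPM of Mki67. Without vehicle day 1 replicates 1 and 2, the median of the 41 genes between the vehicle groups was 0.15. Each of these 2 libraries was above the cord median for 39 of the 41 genes, so this rise was bound to follow. Without replicates 2 and 3, which were rich in sensory neuron markers and were also chosen after seeing the values, the median between the vehicle groups was -0.86. The median of PTX against vehicle at day 1 was -0.55, but there the 3 PTX libraries, at 2515, 851.5 and 1459 CPM of sensory neuron markers, stayed in. The vehicle library left had 75.2 CPM of them, so this setting did not even out those markers between PTX and vehicle. In both cases the 1 library left is assumed to vary like the other groups. Of 16142 and 16160 genes tested in these 2 settings, 1102 and 20 passed between the vehicle groups, against 3109 of 15815 with all libraries. Left out alone, replicate 1 gave 4 calls, replicate 2 gave 1 and replicate 3 gave 19, and the day 7 replicates 1, 2 and 3 gave 2, 3 and 5. A fit of these 2 groups alone gave 3 and a fit without the filter on low counts gave 6. All 5 sensory neuron markers were also lower at day 7 than at day 1 (median log2 difference -3.47). The part of either set of markers in the result was not tested.

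**Figure D4:**
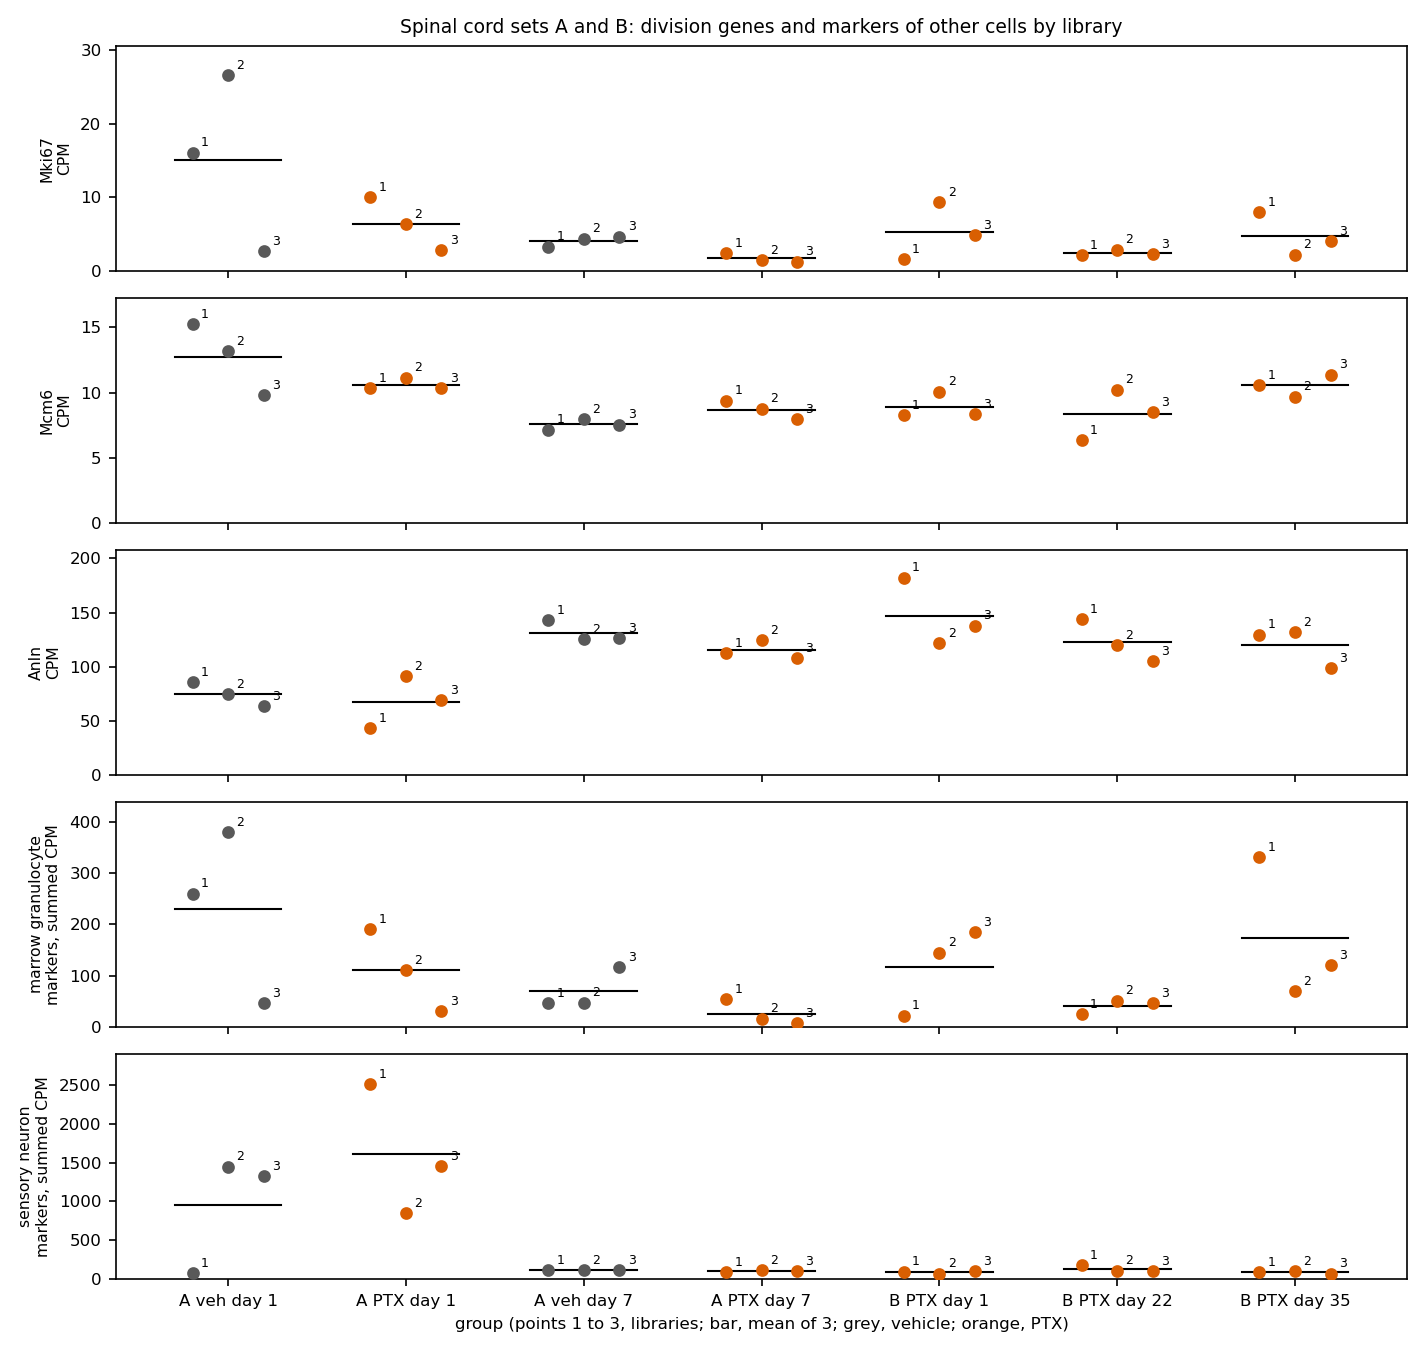
Levels in each cord library (CPM, linear axes from 0) by group, with points for libraries 1 to 3 and bars for the mean of 3, grey for vehicle and orange for PTX. The day 1 vehicle replicates 1 and 2 of set A are high in both Mki67 (16.1 and 26.6 CPM) and granulocyte precursor markers (260.1 and 380.5 CPM), and the sensory neuron panel is high in 5 of the 6 day 1 libraries of set A.

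Whether the PTX effect in set A differed between day 7 and day 1 was also tested. The difference passed for none of the 41 genes, where 8.76% of all genes passed. An unadjusted p under 0.05 was found for 4 of the 41, beside 29.6% of all genes, and DESeq2 called 1. Ccne2 came nearest (log2 difference of effects 0.74 ± 0.23 SE, adjusted p = 0.0507), followed by Nuf2, an outer kinetochore subunit, at 1.19 ± 0.42 (SE, adjusted p = 0.0801). The count was 4 without PTX day 1 replicate 2, 2 without vehicle day 1 replicate 3 and 1 without PTX day 7 replicate 3.

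Set B had no vehicle, so its later days were compared with its day 1. None of the 41 genes passed at day 22, where 1.09% of all genes did, or at day 35, where 0.0885% did. The median log2 difference was -0.41 at day 22 and -0.03 at day 35, beside -0.03 and -0.02 over all genes. Above 0 were 7 and 16 of the 41 genes, beside 44.8% and 44.1% of all genes. Unadjusted p-values under 0.05 numbered 3 and 2, beside 13.2% and 5.22% of all genes, and DESeq2 called 0 of the 41 at both. The smallest p at day 22 was that of Mcm7 (log2 difference -0.42 ± 0.15 SE, adjusted p = 0.226), and at day 35 that of Bub1b (-0.99 ± 0.43 SE, adjusted p = 0.947). Mki67 was at 1.54, 9.34 and 4.79 CPM at day 1, at 2.11, 2.85 and 2.25 CPM at day 22, and at 8.00, 2.18 and 4.01 CPM at day 35, and the ranges overlapped. The day 35 library with the highest Mki67 also had the highest sum of granulocyte precursor markers, at 331.0 CPM against 69.6 and 120.1. At day 1 it was otherwise, as the library with 9.34 CPM of Mki67 had a sum of 145.1 CPM and that with 4.79 had 184.6.

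Between the PTX day 1 libraries of the 2 sets, Anln and Racgap1 were higher in set B, where 32.9% of all genes passed. Anln was at 182.2, 121.6 and 137.9 CPM in set B and at 43.0, 91.1 and 69.1 CPM in set A (log2 difference 1.12 ± 0.21 SE, adjusted p = 0.00189). Racgap1 was at 21.3, 21.2 and 20.4 CPM in set B and at 13.2, 17.3 and 17.0 CPM in set A (log2 difference 0.41 ± 0.09 SE, adjusted p = 0.00484). The summed sensory neuron markers, which were 851.5 to 2515 CPM in set A and 70.9 to 101.8 CPM in set B, were lower in set B for 5 of 5 markers. The part of these markers was not tested. Of the astrocyte markers 5 of 5 and of the oligodendrocyte markers 3 of 5 were higher in set B. The count was 0 when these 2 groups were fitted alone and 4 without day 1 replicate 2 of set B.

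**Figure D5:**
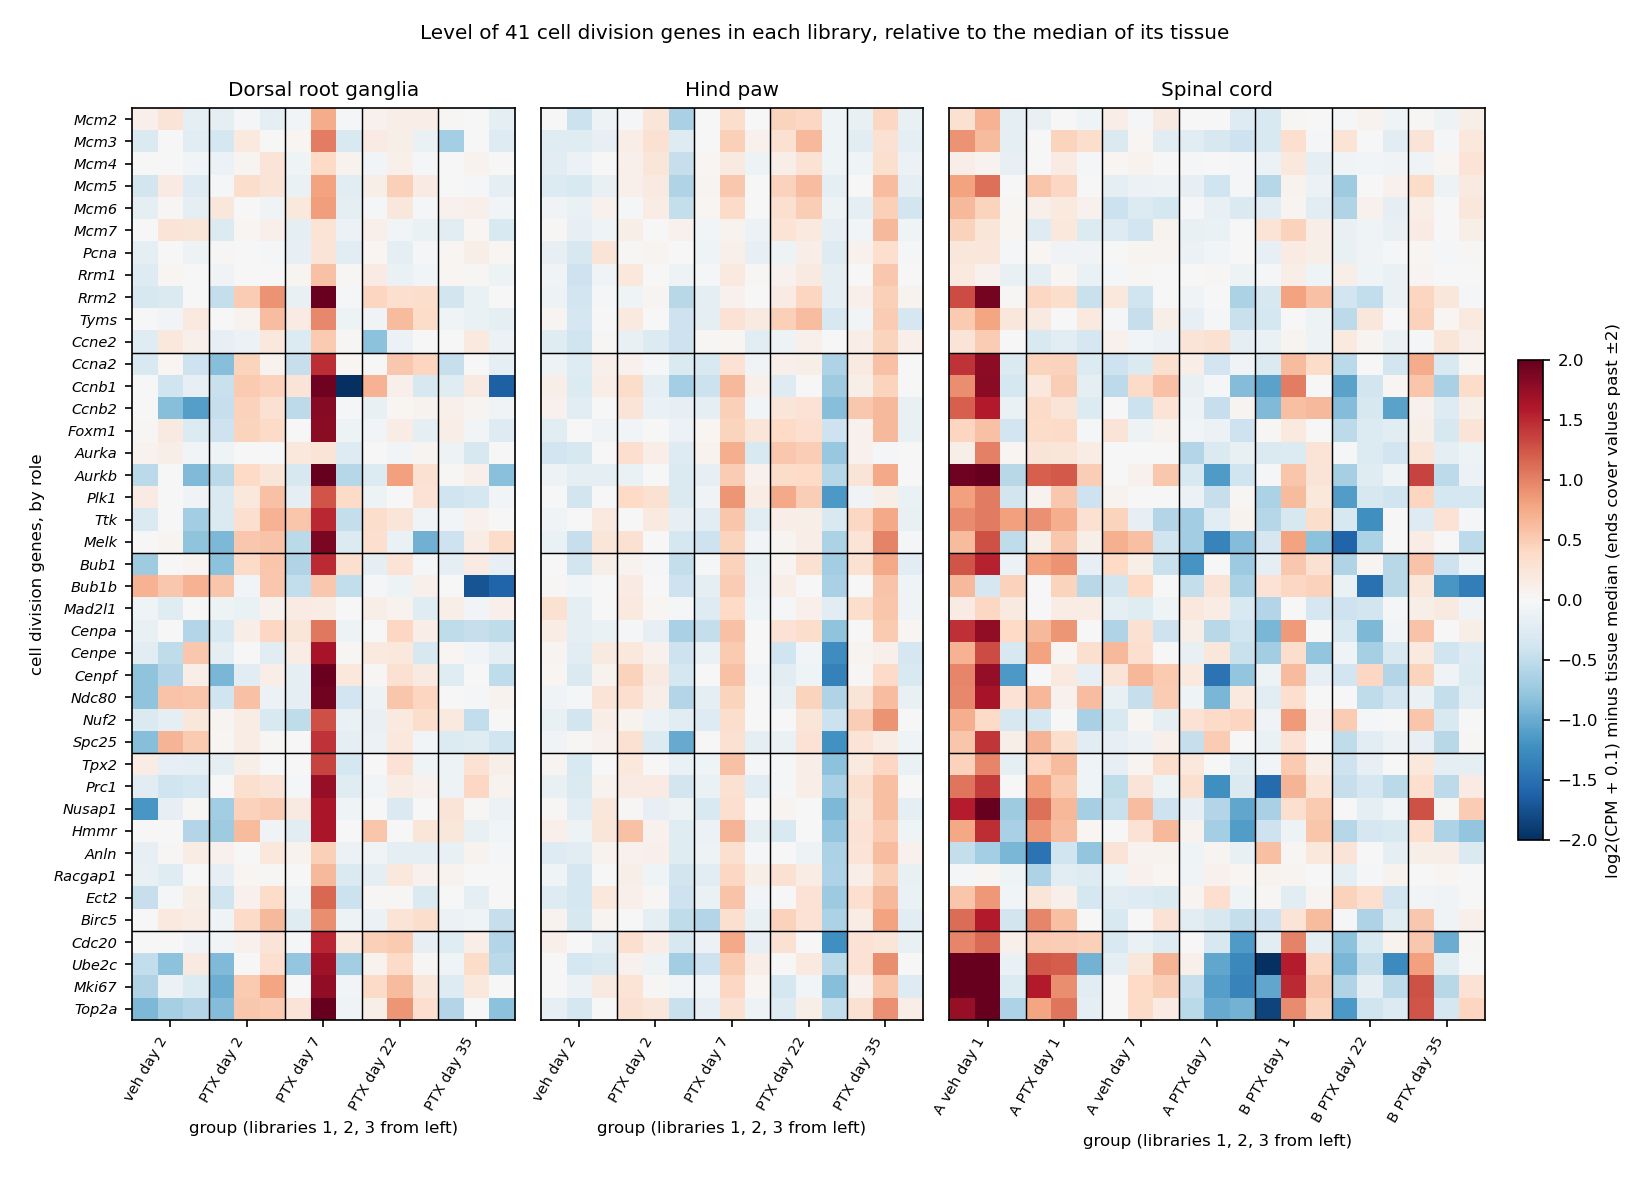
Level of each of the 41 genes in each of the 51 libraries as log2(CPM + 0.1) minus the median of the tissue, with colours ending at 2.0 in either direction and rows ordered by role. A red column marks DRG PTX day 7 replicate 2, where 39 of 41 genes are the highest of their tissue (19.1% of all genes). Others mark cord set A vehicle day 1 replicate 2 (31 of 41, 7.56% of all) and paw PTX day 35 replicate 2 (26 of 41, 17.8% of all). A blue column marks paw PTX day 22 replicate 3 (28 of 41 lowest, share of all genes not given). It is above the paw median for 0 of 41 genes and 49.2% of all genes.

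Other genes of the cell cycle, 82 in number, were read beside these. Between vehicle tissues 66 of 82 were higher and 8 lower in paw than in DRG (median log2 difference 1.85), where 80.2% of all genes passed. In DRG after PTX 0 of 79 tested passed at any day, where at most 0.209% of all genes did. The 3 smallest p-values at day 7 were those of the condensin subunit Smc2 (0.64 ± 0.15 SE, adjusted p = 0.0739), the CDK inhibitor Cdkn2c (0.69 ± 0.16 SE, adjusted p = 0.0760) and cyclin D1, Ccnd1 (0.92 ± 0.28 SE, adjusted p = 0.108). In paw 1 of 81 passed, at day 22, where 1.12% of all genes did. It was Ccnd3, a D-type cyclin (0.63 ± 0.13 SE, adjusted p = 0.0466). In cord set A 0 of 79 passed at day 1 or day 7, where 0.0% of all genes did. Between its vehicle groups 18 of 79 were lower and 1 was higher at day 7, where 19.7% of all genes passed. Among those lower were the thymidine kinase Tk1 (-1.23 ± 0.27 SE, adjusted p = 0.00797) and the spindle motor Kif15 (-2.36 ± 0.53 SE, adjusted p = 0.00890). The gene higher was the RB family member Rbl2 (0.28 ± 0.08 SE, adjusted p = 0.0199). In set B 1 of 79, the CDK inhibitor Cdkn1a, was lower at day 22 than at day 1 (-2.32 ± 0.34 SE, adjusted p = 0.00203). The background there was 1.09% of all genes. At day 35, 0 of 79 passed, beside 0.0885% of all genes. Between the sets at day 1, 5 of 79 were higher and 9 lower in set B, where 32.9% of all genes passed.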

How the data were processed

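RNA was sequenced from DRG, hind paw and spinal cord in 51 libraries. Polyadenylated RNA was made into stranded libraries, per the labels' protocols. Per the submitters' processing notes, which state no tool versions, TopHat2 aligned the reads to mm9 and HTSeq counted them. For every library the authors deposited a table of unnormalized gene counts. Summary lines of the counter were kept out of library sizes.

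Groups were compared in R 4.3.3 with edgeR 4.0.16 (robust quasi-likelihood F test), 1 fit per tissue over all its groups, 1 over the 12 vehicle libraries and 1 over DRG and paw together. Genes were kept with filterByExpr (count 10, total 15), scaled with TMM, and called where p, adjusted by Benjamini-Hochberg over every gene of the fit, was under 0.05. All 41 genes were tested in each fit. CPM used the TMM-scaled library sizes of each fit. Levels per kb used the exon union of GENCODE M21 (mm10). SEs were obtained as the log2 fold change over the square root of F. With 3 libraries a group, precision rests on the spread between libraries more than on depth. The alternatives were DESeq2 1.42.0, RLE scaling, no filter, only the groups compared, a replicate block and leaving out each library.

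The 41 genes, the other cell cycle genes and the marker lists were chosen with earlier results of these data known. By rule, any of the 41 genes could be named, with values for those called or, with few called, the 3 smallest p-values of a comparison, and for the highest and lowest per tissue. Of the other cell cycle genes, the rule took those called and the 3 with the smallest p. Mki67, Top2a and other genes whose library values are given beyond this rule were chosen after their values were seen. Of the marker lists, 1 gene is not reported here, and its list was summed without it.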

Additional observations from a re-analysis of the deposited data

Results flagged for a closer look

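None of the 41 genes met a criterion for a closer look. In cord set A, 4 of 79 other cell cycle genes differed in PTX effect between day 7 and day 1. The test was of that difference itself (edgeR interaction, adjusted over 15815 genes), and 8.76% of all genes passed it. The log2 effect at day 7 was higher than that at day 1 by 0.68 for Orc6, a subunit of the origin recognition complex (adjusted p = 0.0171), and by 0.50 for Pttg1, which encodes securin (adjusted p = 0.0192). It was higher by 0.51 for Pkmyt1, an inhibitory kinase of CDK1 (adjusted p = 0.0421), and by 1.07 for Cdt1, a factor that loads the MCM helicase (adjusted p = 0.0464). The day 1 libraries behind these values carried the sensory neuron and granulocyte precursor markers given above.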

How the results depend on the processing

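Replicate numbers were not treated as pairs in the main fits. All same-numbered correlations passed 0.1 in 2 of 10 group pairs in DRG, 0 of 10 in paw and 1 of 21 in cord. Between DRG and paw, in the joint fit, they did so in 0 of 25. Cord libraries were not compared with those of DRG or paw in this way. Among DRG PTX days 2, 7 and 35, however, each library correlated best with its own number in each later day (r from 0.1 to 0.36). In cord the same held for PTX day 7 of set A with both day 1 groups of its set (r from 0.03 to 0.2). It held also for that group with set B day 35 (r from 0.09 to 0.37), and for vehicle day 7 with set B day 22 (r from 0.02 to 0.15). In the joint fit it held for DRG vehicle with paw PTX day 7 (r from 0.02 to 0.06). Pairing is therefore not excluded. With the replicate as a block, the count of the 41 genes called between the vehicle groups of cord set A was 6 in place of 12, and 1 in place of 0 for the day 7 minus day 1 effect there. No other count of calls moved by over 1.5 times under the block. Between those vehicle groups the count was also 6 with no filter, 3 with only the groups compared, and 0 without the marrow-rich or without the sensory neuron-rich day 1 libraries, both settings chosen after seeing the data. With DESeq2 1 gene was called at DRG day 7, at DRG day 35 and for the day 7 minus day 1 effect. With only the groups compared 2 were called at day 7 in set A and 0 between the sets. The day 7 minus day 1 effect gave 1 call without the sensory neuron-rich libraries. Leaving out 1 library at a time gave 0 to 4 calls at DRG day 7, 0 to 1 at DRG day 35, 0 to 3 at day 1 in set A, 1 to 19 between its vehicle groups, 0 to 4 for the day 7 minus day 1 effect, 2 to 4 between the sets, 5 to 18 between vehicle DRG and cord, and 0 to 1 for the DRG minus paw effect at day 35. Without the marrow-rich libraries, Rrm2 at day 1 turned to 0.14, and Ccna2 and Mcm3 between the vehicle groups to 0.20 and 0.05 on the log2 scale. Those libraries were also each above the cord median for 39 of the 41 genes, so changes in this direction were bound to follow. The cause of these changes was not tested. For most of these alternative fits the share of all genes called is not given, here or above. Their counts therefore show how the calls of the 41 genes moved, and not whether they moved more than those of other genes. Low levels in DRG and cord, down to 0 counts of Ccnb1, limit what can be seen there.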

Other observations

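Bub1b, the checkpoint kinase BUBR1, had the third highest level per kb of the 41 genes in DRG, and its values in nervous tissue are given in full. In DRG it was at 9.94, 8.94 and 10.01 CPM in vehicle and, after PTX, at 9.01, 5.89 and 8.99 CPM at day 2, 4.35, 8.98 and 4.34 at day 7, 6.01, 5.68 and 6.61 at day 22 and 6.13, 1.78 and 1.95 at day 35. In cord it ranged from 2.14 to 9.78 CPM over 21 libraries. In set A it was at 9.78, 4.90 and 8.54 CPM in vehicle and 6.21, 8.47 and 4.17 CPM after PTX at day 1, and at 4.81, 8.24 and 6.20 CPM in vehicle and 4.44, 7.46 and 3.95 CPM after PTX at day 7. In set B it was at 7.59, 8.33 and 8.56 CPM at day 1, 5.62, 2.14 and 4.17 at day 22 and 7.24, 2.71 and 2.32 at day 35. In paw it ranged from 12.4 to 29.0 CPM. In edgeR's test with all libraries, no Bub1b difference from vehicle or between PTX days passed the adjusted threshold.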
